A study of Rattus norvegicus with 20 samples.

Results

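After compression of the rat sciatic nerve, 6 microRNAs (miRNAs) dropped out of detection in the dorsal root ganglia (DRGs): rno-miR-190, rno-miR-374, rno-miR-872*, rno-miR-339-3p, rno-miR-138* and rno-miR-346. They were taken by name from the 348 miRNAs that carried 1 name on all 20 arrays of the series. Their DRG signals chose them, since each fell after entrapment and after decompression and was still present after denervation. Their DRG values are therefore a description, with no test. Soleus muscle and other miRNAs of the same hairpins played no part in the choice and were tested.

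The arrays were single-colour Agilent rat miRNA arrays of adult male Sprague-Dawley rats, 10 for the DRGs, which hold the cell bodies of the sensory neurons, and 10 for soleus, a slow muscle of the lower leg supplied by the same nerve. Each tissue had 1 array after a sham operation and 3 for each of the other groups. In the denervation group the sciatic nerve had been cut, a segment of it removed and the stump tied off, 6 months before sampling. In the entrapment group a silastic tube that did not constrict the nerve had been left around it for 6 months, and in the decompression group the tube had been taken off after 6 months and the rats kept for another 3 months. No genetic change is named for any group. The injury arrays are labelled as experimental replicates and the study's methods give 3 rats a group. The sham tissue is 1 array, and no source says whether it held RNA of 1 rat or a pool. Every test gave it the spread of the other groups, so p-values against it leave its own spread unmeasured.

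A miRNA hairpin yields a pair of strands, and usually one of them is loaded into Argonaute far more often than the other. The array's older names mark the rarer, or minor, strand with an asterisk. The loaded strand recognises messenger RNAs mainly through its seed, and most targets are then degraded or translated less. In sensory ganglia, miRNAs are known to act both in the neurons and in the satellite glia and Schwann cells around them.

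The mature sequences are shown because the 6 miRNAs share a measured pattern, and a shared seed would place them in 1 targeting family. They come from RefSeq on the rat build GRCr8, 5′ to 3′, and capitals mark the seed, bases 2 to 8. The array files give names and no sequences, and the older names were matched to present arm names by convention. The name miR-138* does not say which of the 2 miR-138 hairpins is meant, so the rarer strand of both is given.
rno-miR-190 (miR-190a-5p): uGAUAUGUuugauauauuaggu
rno-miR-374 (miR-374-5p): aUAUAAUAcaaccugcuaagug
rno-miR-872* (miR-872-3p): uGAACUAUugcaguagccuccu
rno-miR-339-3p: uGAGCGCCucgacgacagagcca
rno-miR-138* (miR-138-1-3p): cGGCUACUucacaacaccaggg
rno-miR-138* (miR-138-2-3p): gCUAUUUCacgacaccagggu
rno-miR-346: uGUCUGCCugagugccugccucu
All 7 seeds differed. Base composition ranged widely, from 22.7% G and C in miR-190 to 65.2% in miR-339-3p, around a median of 47.8% over the 693 mature rat miRNAs in the table. Lengths were 21 to 23 bases, against a median of 22.

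The 6 were spread over the genome. Mature miR-190 was at chr8:76732228-76732249 on the minus strand, within Tln2, the gene of talin-2, which links integrins to actin. Mature miR-374 was at chrX:72657532-72657553 on the minus strand, within the long non-coding RNA Ftx of the X-inactivation centre and opposite to Jpx. Mature miR-872* was at chr5:114654872-114654893, within Ift74, which encodes a protein of ciliary transport. Mature miR-339-3p was at chr12:20391445-20391467, within C12h7orf50. The candidates for miR-138* were at chr8:131178494-131178515, within a long non-coding RNA, and at chr19:10680139-10680159, within Slc12a3, the thiazide-sensitive sodium chloride cotransporter. Mature miR-346 was at chr16:10224315-10224337, within Grid1, which encodes a delta-type glutamate receptor subunit.

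The values are total gene signals as deposited, linear intensities after background subtraction that can be negative, each with its error and a detection call. Here every signal was scaled to the 75th percentile of its array, and log2 was taken after raising values below a floor (2.31 in the DRGs) to that floor. The 219 DRG miRNAs detected on at least 3 of 10 arrays were tested. Levels below are scaled signals in linear units unless called log2 differences, and levels of different miRNAs are not compared, since probes differ in brightness. In bulk tissue, fewer cells of a type and less RNA per cell cannot be told apart. On the deposited table of processed values, the DRG columns named entrapment hold the scanner signals of the decompression files and the reverse, up to a constant per array. Which naming is right cannot be told from the files, and a swap would exchange the entrapment and decompression values given for the DRGs.

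All 6 miRNAs were detected on the sham DRG array. After denervation 17 of 18 calls were positive, the exception being miR-872* on denervation 2. After entrapment 0 of 18 and after decompression 0 of 18 calls were positive. Of the 211 miRNAs detected on the sham array and all 3 denervation arrays, 10 were detected on none of the 6 entrapment and decompression arrays, which is 4.74%. Without decompression 1 the count was 16. The rule used these values, so nothing is read from the shares. The 10 included 5 of the 6, all but miR-872*. Of all 219 miRNAs tested, 22 (10%) lay at least 2-fold below sham on each of those 6 arrays, and the 22 included all 6. Of the 219, 59 (26.9%) had signals on those 6 arrays below all 4 sham and denervation arrays, and the 59 included 5 of the 6, all but miR-346.

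miR-190 was at 23.2 on the sham array, at 23.6, 21.4 and 23.8 on denervation arrays 1 to 3, at -2.29, -2.81 and -2.02 after entrapment, and at -1.26, -1.67 and -1.51 after decompression. The sham and denervation arrays thus lay close together, and the other 6 arrays were below zero. On the scaled signals as they stand, this was a fall to at least 8.88-fold below sham after entrapment and at least 9.92-fold after decompression. Each such bound sets the mean log2 level of the brighter group against the dimmer group, with each dim array counted at the highest of the floor, its lowest detected signal and its own signal. The bounds take no account of the lower signals of never-detected miRNAs on the entrapment and decompression arrays, given below. With those subtracted, miR-190 was at 24.9 in sham and at means of 3.73 after entrapment and 3.57 after decompression. These are smaller folds than the bounds.

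miR-374 was at 8.20 on the sham array and at 11.5, 12.3 and 10.7 after denervation, where all 3 arrays were above sham with a mean log2 difference of 0.49 ± 0.10 (SD, n = 3). It was at -1.92, -1.98 and -1.93 after entrapment and at -0.928, -0.226 and -1.70 after decompression. The groups did not overlap, and the bounds were at least 3.14-fold and at least 3.51-fold below sham.

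miR-872*, the minor strand of its hairpin, was at 20.9 on the sham array and at 13.1, 8.52 and 13.0 after denervation. It was at 2.66, -1.84 and 2.90 after entrapment and at 0.842, 1.20 and -1.63 after decompression. The denervation arrays were intermediate, all 3 below sham by a mean log2 difference of -0.89 ± 0.35 (SD, n = 3) and all above the entrapment and decompression arrays. The bounds were at least 7.64-fold below sham after entrapment and at least 8.94-fold after decompression.

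miR-339-3p was at 10.3 on the sham array, at 7.71, 4.38 and 6.64 after denervation, at -2.41, -5.40 and -0.976 after entrapment and at -1.28, -2.40 and -4.47 after decompression. It too was intermediate after denervation, with a mean log2 difference from sham of -0.76 ± 0.42 (SD, n = 3). The bounds were at least 3.94-fold and at least 4.40-fold below sham.

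miR-138*, the minor strand of a miRNA that is abundant in neurons, was at 9.34 on the sham array, at 11.3, 7.36 and 5.19 after denervation, at -1.27, -4.20 and -0.290 after entrapment and at -0.318, -1.96 and -2.47 after decompression. The denervation arrays lay on both sides of sham, and the mean log2 difference of -0.31 was smaller than their SD of 0.56 (n = 3). The bounds were at least 3.58-fold and at least 4.0-fold below sham.

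miR-346 was the least regular of the 6. It was at 31.0 on the sham array and at 16.7, 9.17 and 17.3 after denervation, a mean log2 difference of -1.16 ± 0.51 (SD, n = 3). After entrapment it was at 7.69, -2.58 and 11.9 and after decompression at 1.97, 4.54 and 0.950. Entrapment 3, at 11.9 and 4.02 times its error, was not called detected, although it was above denervation 2 at 9.17 and 4.76 times its error, which was. The entrapment and denervation groups therefore overlapped in signal while their detection calls did not. The bounds below sham were at least 5.20-fold after entrapment and at least 10.6-fold after decompression, but against denervation only at least 2.32-fold and at least 4.73-fold.

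**Figure D1:**
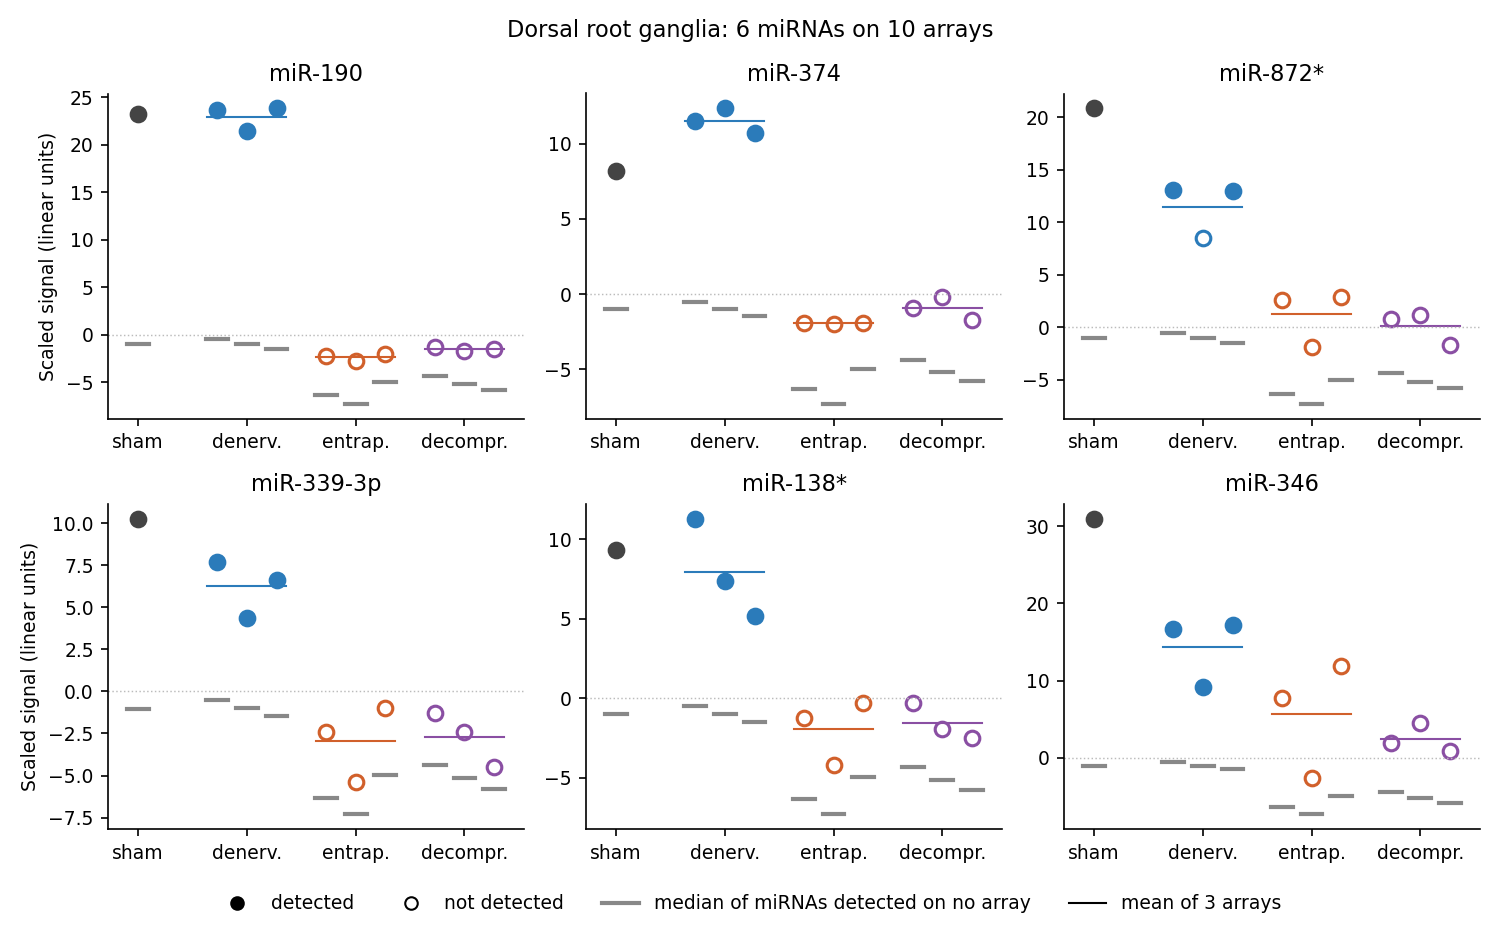
Scaled signal (linear units, vertical axis) of the 6 miRNAs on the 10 DRG arrays, grouped by condition, with filled points detected and open points not, thin lines for the mean of 3 arrays and short grey lines for the median of the 110 miRNAs detected on no DRG array. The 18 entrapment and 18 decompression points are all open, and the grey lines lie at -7.31 to -4.36 in those groups against -1.48 to -0.498 on the other 4 arrays.

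The rule asked for a fall after nerve compression and none after denervation. For miR-872*, miR-339-3p and miR-346, all 3 denervation arrays were nonetheless below sham. Only miR-374 was above sham on every denervation array, and miR-190 had a mean log2 difference of -0.02 ± 0.09 (SD, n = 3). The share of all 219 with every denervation array on one side of the single sham array was not counted, so nothing is read from these sides. Over all 219 miRNAs tested the median log2 difference was -0.02 after denervation, -0.11 after entrapment and -0.13 after decompression. Over the 6 it was -0.53, -2.26 and -2.66.

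The signals that lie at the bottom of the arrays moved with these groups. On the 110 miRNAs detected on no DRG array, the median signal was -1.48 to -0.498 on the sham and denervation arrays and -7.31 to -4.36 on the entrapment and decompression arrays. Of these 110, 97 (88.2%) were below all 4 sham and denervation arrays on each of the other 6. Counting from this baseline of each array, miR-190 was at 24.9 in sham, 23.1 to 26.0 after denervation, 2.93 to 4.33 after entrapment and 3.08 to 4.19 after decompression. The sham and denervation arrays of miR-190 thus still lay above the other 6 in this reckoning.

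Above the same baseline, miR-374 was at 9.5 in sham, 12.4 to 13.8 after denervation, 3.02 to 5.13 after entrapment and 3.41 to 4.86 after decompression. miR-138* was at 10.7, 6.84 to 12.2, 2.99 to 4.91 and 3.16 to 4.01 in that order of groups. For both, the lowest of the sham and denervation arrays still stood above the highest of the others. miR-872* was at 22.6, 9.82 to 14.8, 5.27 to 8.73 and 4.07 to 6.27, and miR-339-3p at 11.6, 5.55 to 8.51, 1.84 to 3.96 and 1.29 to 3.05. miR-346 was at 33.0, 10.5 to 19.2, 4.55 to 16.7 and 6.29 to 9.56, so that its entrapment and denervation arrays overlapped here too. In this reckoning the sham and denervation arrays remained above all entrapment and decompression arrays for 5 of the 6, all but miR-346, and for 42 of the 219 miRNAs tested (19.2%). With the floor redrawn on the shifted signals, 2 of the 6, miR-190 and miR-872*, were at least 2-fold below sham on all 6 arrays, and 8 of the 219 (3.65%). The part of the baseline in the falls beyond these values was not tested.

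A probe that is dim on the sham array has less far to fall before it drops out of detection. The sham signals of the 6 are therefore ranked among the probes, as a description of the probes and not of RNA amounts. From the dimmest of the 219, miR-374 was number 9, miR-138* number 12, miR-339-3p number 18, miR-872* number 45, miR-190 number 50 and miR-346 number 74. Of the miRNAs brighter than miR-346 on the sham array 0 lost detection, and 5 were at least 2-fold below sham on all 6 arrays. Of the 55 other miRNAs within the sham range of the 6, from 8.20 to 31.0, that were detected on the sham and denervation arrays, 3 lost detection (5.45%). The number detected per array was 233 in sham, 213 to 225 after denervation, a median of 184 after entrapment and 187 to 200 after decompression.

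**Figure D2:**
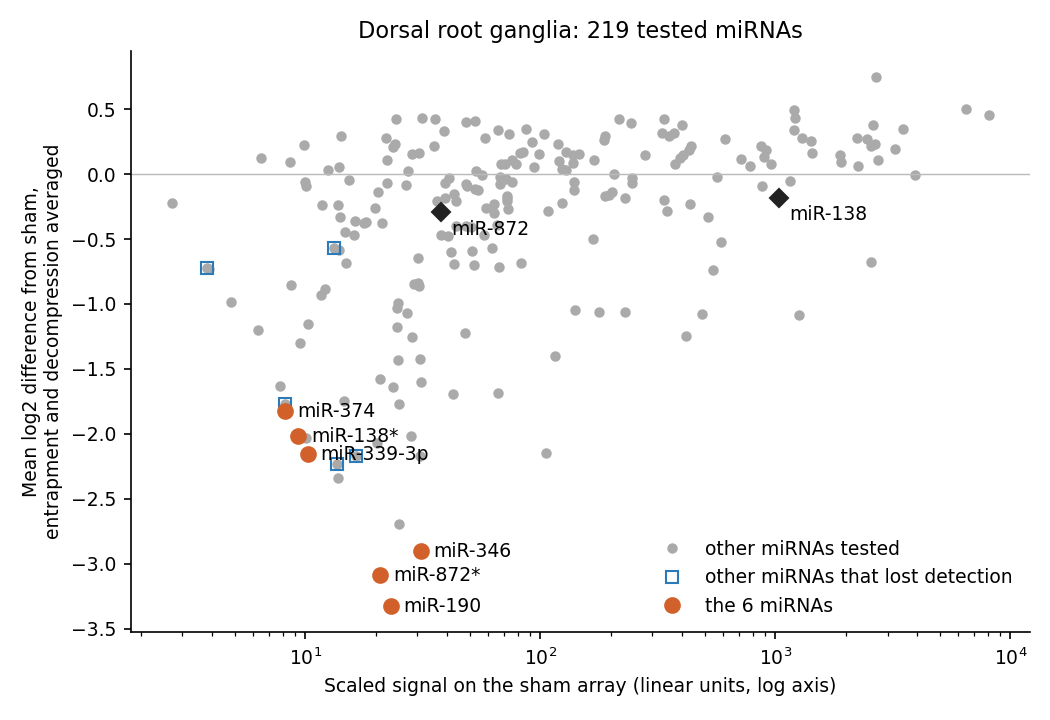
Mean log2 difference from sham, averaged over entrapment and decompression (vertical axis), against the scaled signal on the sham array (linear units, log axis) for the 219 DRG miRNAs tested, with the 6 miRNAs in orange, their detected hairpin partners as diamonds and the 5 other miRNAs that lost detection as blue squares. The 6 lie at sham signals of 8.20 to 31.0, where other miRNAs spread from above zero to below -2, and miR-872 and miR-138 lie close to zero.

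Beyond the 6, the miRNAs detected on all sham and denervation arrays and on none of the other DRG arrays were miR-340-5p, miR-350, miR-384-3p, miR-450a and miR-874. miR-384-3p, at 8.18 in sham, changed like miR-374, with mean log2 differences of 0.31 after denervation, -1.82 after entrapment and -1.72 after decompression. miR-450a was at -0.31, -2.10 and -2.36 in the same order, and miR-350 at -0.39, -1.89 and -2.45. miR-340-5p and miR-874 were less than 2-fold below sham on average. Just outside, 9 miRNAs were detected on 1 of the 6 arrays. miR-125a-3p, called on 1 decompression array, had mean log2 differences of -3.17 after entrapment and -2.21 after decompression. It was named after its values were seen.

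Decompression and entrapment were not compared for the 6. The choice asked for a fall in both groups, neither gave a detected signal for any of the 6, and miR-190, miR-374, miR-339-3p and miR-138* were at the floor on all arrays of both. Over all 219 miRNAs limma called 0% in either direction, and at an unadjusted p below 0.05 it had 1 lower and 8 higher.

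Other miRNAs of the same hairpins, transcripts or families were looked up by name. Of 9 listed, 5 were on the array. miR-190b, which has the seed GAUAUGU of miR-190, miR-421, which neighbours miR-374 in Ftx, and miR-339-5p, the partner strand of miR-339-3p, were detected on none of the 20 arrays. Their undetected signals moved with the baseline: miR-190b was at -3.63 in sham and at -3.72 to -2.36 after denervation, then at -7.30 to -6.51 after entrapment and -6.25 to -4.14 after decompression. miR-872 and miR-138, the major strands of 2 of the hairpins, were detected on all 10 DRG arrays.

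miR-872, whose minor strand was lost, was at 37.7 in sham, 39.0, 38.6 and 42.6 after denervation, 29.9, 31.0 and 34.1 after entrapment and 25.6, 29.9 and 34.7 after decompression. All 6 entrapment and decompression arrays were below the sham array. Against sham the log2 difference was -0.25 (SE 0.17) after entrapment and -0.34 (SE 0.17) after decompression, neither past the threshold, with adjusted p-values of 0.295 and 0.172 in limma. The 95% intervals were -0.63 to 0.13 and -0.72 to 0.05. The difference between the strands was not tested, since miR-872* was chosen for its fall. Under median scaling the sign of both differences turned, to 0.59 and 0.52, and under quantile scaling that of entrapment turned to 0.076.

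Against denervation, miR-872 was lower by a log2 difference of -0.34 in the entrapment group (limma, adjusted p = 0.0481) and -0.42 in the decompression group (adjusted p = 0.0226), on all 3 arrays of each group, where 32.9% and 27.9% of all miRNAs were called lower. With the baseline subtracted these were -0.20 (adjusted p = 0.172) and -0.30 (adjusted p = 0.0598), both short of the threshold, and under median scaling the sign turned. Both calls were also lost under quantile and loess normalization. Leaving out 1 array at a time, the call was kept in 2 of 9 fits for entrapment and in 5 of 9 for decompression, and it was lost in both without denervation 1, denervation 3 or decompression 2. The adjusted p-values ranged from 0.0250 to 0.155 and from 0.00778 to 0.0820.

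miR-138, a neuron-enriched miRNA known from dendritic spines, was at 1035 in sham, 819, 797 and 757 after denervation, 855, 998 and 934 after entrapment and 951, 817 and 939 after decompression. The log2 differences from sham were -0.39, -0.16 and -0.20 in that order of groups, with adjusted p-values of 0.195, 0.376 and 0.291 in limma, and under median scaling the signs for entrapment and decompression turned to 0.68 and 0.65. The 95% intervals, which are not adjusted for the number of miRNAs tested, were -0.68 to -0.095, -0.45 to 0.13 and -0.50 to 0.09. The first, for denervation, lay below zero, and all 3 denervation arrays were below sham. Of the 2 major strands limma called 0 after denervation (where 0% of all miRNAs were called lower), 0 lower than sham after entrapment, where 17.4% of all miRNAs were called lower, and 0 after decompression, where 16.4% were.

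**Figure D3:**
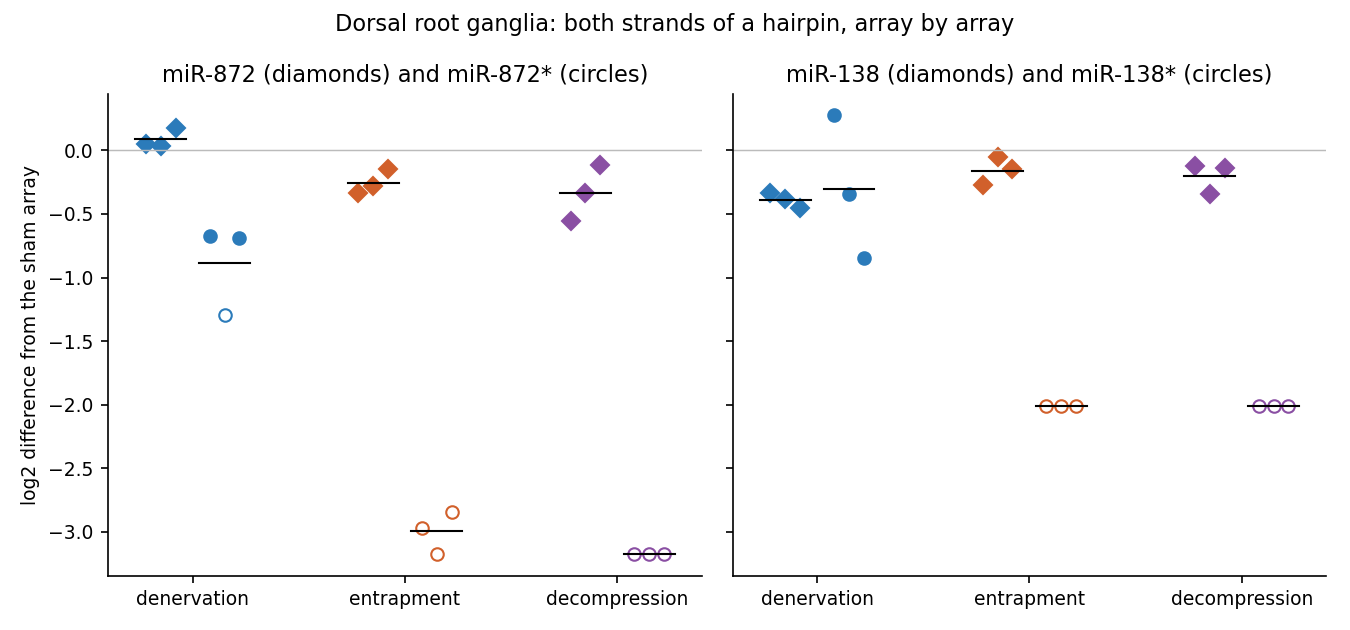
log2 difference from the sham DRG array (vertical axis) on each injury array for the major strand (diamonds) and the minor strand (circles) of the miR-872 and miR-138 hairpins, with filled points detected, open points not and black lines for the mean of 3 arrays. After entrapment and decompression the major strands stay close to the sham level, while the minor strands, chosen for their fall, drop to the floor or near it.

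The other minor strands on the array give the setting for miR-872* and miR-138*. Of 58 names with an asterisk, 28 were tested, with median log2 differences of -0.10 after denervation, -0.44 after entrapment and -0.45 after decompression, against -0.02, -0.11 and -0.13 over all 219. Without miR-872* and miR-138* the 26 others had medians of -0.05, -0.32 and -0.33, and 0 of the 24 that were detected on the sham and all denervation arrays lost detection.

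The likeness of DRG profiles was measured as Pearson's r over the 10 arrays on the log2 scale, as a description, since the arrays share their groups and baseline. Between the 6 the 15 values ran from 0.726 to 0.990, with a median of 0.942. The 6 were chosen for a shared pattern, and miR-190, miR-374, miR-339-3p and miR-138* were at the floor on all entrapment and decompression arrays. High values between the 6 were therefore built in, and nothing is read from them. The closest profile to miR-190 was miR-126*, a strand of an endothelial hairpin (r = 0.997), which was detected on all 10 arrays and fell by 1.69 and 1.68 on the log2 scale after entrapment and decompression. Closest to miR-374 was miR-30c (r = 0.996), also detected on all 10 arrays. miR-872* and miR-339-3p were closest to each other (r = 0.989). Closest to miR-138* was miR-384-3p (r = 0.965) and to miR-346 let-7b* (r = 0.955).

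Markers of the labelled tissue were present in the DRGs. Of 10 neuronal miRNAs, 9 or 10 were detected in each group, with a summed scaled signal of 5097 in sham, 4425 to 4771 after denervation, 4717 to 5362 after entrapment and 4892 to 5336 after decompression. The glial list, miR-338 and miR-219-5p, summed to 8108 in sham, 11053 to 12654 after denervation, 10510 to 12508 after entrapment and 9973 to 11408 after decompression. Among lists for other cells, the 5 muscle miRNAs summed to 327 in sham and to 252 to 401 on the other arrays, and the 2 endothelial ones to 630 and 502 to 689. The 2 red blood cell miRNAs summed to 3049 in sham, 697 to 1573 after denervation, 887 to 2917 after entrapment and 1434 to 4313 after decompression. The 4 leukocyte miRNAs on the array summed to 914, 691 to 1127, 491 to 659 and 741 to 979 in that order, so that the entrapment arrays lay below all others. The 5 miRNAs of fibroblasts and smooth muscle summed to 1310, 1308 to 1376, 1413 to 1553 and 1072 to 1652. No summed signal of a list separated all 6 entrapment and decompression arrays from the other 4. Within the endothelial list, however, miR-126* was at mean log2 differences from sham of -1.69 after entrapment, -1.68 after decompression and -0.02 after denervation. The part of these cells in the result was not tested. Of the array's 45 control features, 24 separated all 6 entrapment and decompression arrays from the other 4 in the DRGs, against 12 in soleus. The files used here do not separate slide or scan, so neither could be tested, and the part of these features in the result was not tested.

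In soleus the same miRNAs were sparse and were called most often after denervation. On the sham array 2 of 6 were detected, and 11 of 18 calls were positive after denervation, 4 of 18 after entrapment and 4 of 18 after decompression. Of all 348 miRNAs, 152 were detected in sham, 137 to 194 after denervation, 134 to 168 after entrapment and 136 to 145 after decompression. The muscle list of 5 miRNAs was detected in all injury groups, and in sham without miR-499. Of the 6, miR-339-3p was detected on all 10 arrays and miR-374 on 3, so that these were the 2 tested among 173 miRNAs.

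In soleus, miR-339-3p was at 13.0 in sham, 13.2, 14.1 and 30.8 after denervation, 6.09, 4.64 and 4.53 after entrapment and 6.49, 0.759 and 3.78 after decompression. On this scale all sham and denervation arrays were above all others. The share of all miRNAs that did so was not counted, so nothing is read from this separation. Before scaling, sham was at 5.13, below entrapment 1 and 2 at 10.2 and 7.09 and decompression 1 at 6.69. It was above entrapment 3 at 3.22 and decompression 2 and 3 at 0.701 and 4.08. Against denervation it was lower by a log2 difference of -1.83 (SE 0.42) in the entrapment group (limma, adjusted p = 0.0259) and -2.14 (SE 0.42) in the decompression group (adjusted p = 0.0120), on 3 of 3 arrays in each group, in comparisons where 11.6% and 12.7% of all miRNAs were called lower. Against sham the differences of -1.37 and -1.68 were not called (adjusted p = 0.114 and 0.0602, where 19.7% and 22% of all miRNAs were called lower), but both were without denervation 3 (adjusted p = 0.0477 and 0.0242) and the second without decompression 1 (adjusted p = 0.0397). Nor was denervation against sham, at 0.46 (adjusted p = 0.607, with 11.6% of all called higher), or decompression against entrapment, at -0.32 with a 95% interval of -1.26 to 0.63.

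These calls in soleus depended on the processing. With the baseline subtracted, miR-339-3p differed from denervation by -1.21 in the entrapment group (adjusted p = 0.0860) and -1.22 in the decompression group (adjusted p = 0.0691), and neither was called. The call for entrapment was also lost without entrapment 1, 2 or 3 (adjusted p = 0.0515, 0.0932 and 0.0991), and that for decompression was kept in all 9 fits that left out an array. The scaled soleus baseline overlapped between groups, at -3.37 to -0.561 on the sham and denervation arrays and -6.32 to -1.84 on the others. Before scaling it did not overlap, at -1.37 to -1.04 on the sham and denervation arrays and -5.84 to -3.10 on the others. Decompression 2 was called detected at 0.216 times its error.

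Of the other 5, miR-190, miR-374 and miR-872* were detected in soleus mainly or only on denervation arrays, and not all on the same ones. miR-138* was detected on 1 denervation array and the sham array, and miR-346 on 1 denervation and 1 decompression array. miR-190 was at 33.2 and 19.6 on denervation 1 and 2, where it was detected, and at 2.65 on denervation 3 and between -5.83 and 2.99 elsewhere, where it was not. miR-374 was detected at 6.59 and 6.81 on the same arrays and at 1.54 on entrapment 1. It passed the filter through the denervation arrays and was at the floor on all entrapment and decompression arrays, so no test is given.

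On denervation 3, by contrast, miR-346 reached 115 and miR-872* 40.3, while miR-346 was at 2.03 and 2.73 and miR-872* at 2.68 and 4.22 on denervation 1 and 2, where miR-872* was detected on denervation 2. miR-138* was detected on that array at 18.5 and in sham at 14.6. These 2 were the dimmest soleus arrays, with a 75th percentile of 413 on denervation 3 and 409 in sham against 737 to 2539 on the others. Before scaling, miR-346 was at 46.0 on denervation 3 against 2.79 and 6.70 on denervation 1 and 2, and miR-872* at 16.1 against 3.69 and 10.3. miR-138* was then lower on denervation 3, at 7.40, than on denervation 2, at 9.71, where it was not called detected. miR-346 was also detected on decompression 2, at 20.2. The 3 denervation arrays thus differed among themselves for miR-190, miR-872*, miR-138* and miR-346.

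**Figure D4:**
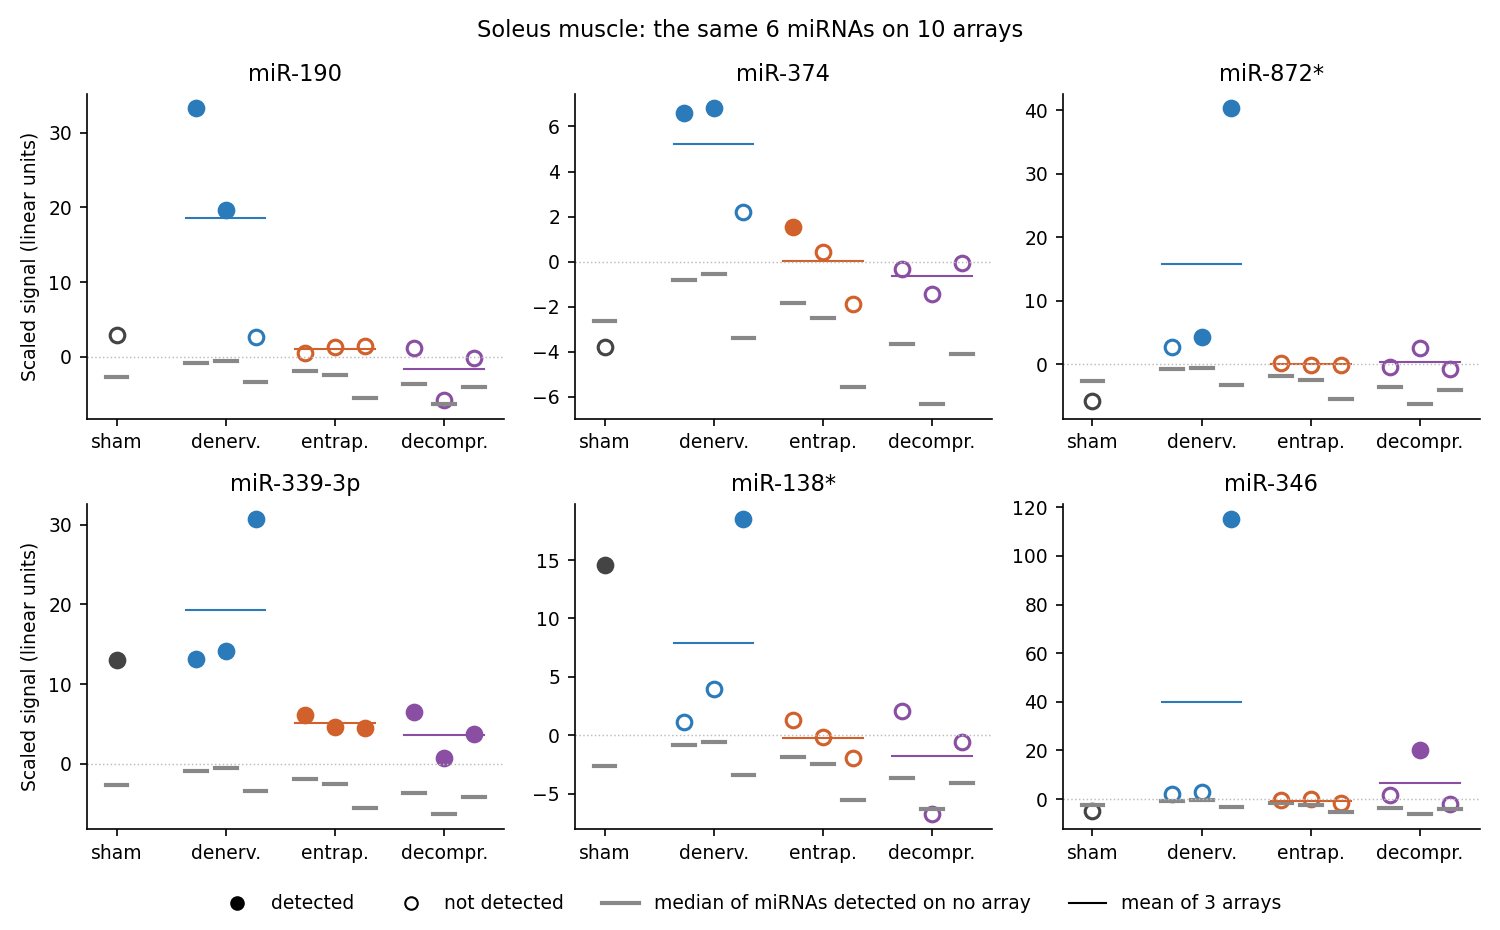
Scaled signal (linear units, vertical axis) of the same 6 miRNAs on the 10 soleus arrays, with filled points detected, open points not, thin lines for the mean of 3 arrays and short grey lines for the median of the 127 miRNAs detected on no soleus array. miR-339-3p is filled on all 10 arrays and lower after entrapment and decompression, while the highest points of miR-872* and miR-346 are denervation 3.

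Of the hairpin relatives, miR-872 was the one detected in soleus. It was at 7.39 and not detected in sham, and it was detected on 2 of 3 denervation, 3 of 3 entrapment and 2 of 3 decompression arrays. The group means lay 2.72-fold, 2.69-fold and 2.34-fold above sham. These are measured folds and not bounds, with undetected arrays, sham included, counted at their own signal. The sham signal was above the lowest detected signal of that array. None of these differences passed the threshold in limma (adjusted p = 0.0645, 0.0649 and 0.0979), although without decompression 2 the first and second did (adjusted p = 0.0418 and 0.0447), as did the second without entrapment 2 (adjusted p = 0.0445). miR-138 was detected on no soleus array.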

How the data were processed

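The values deposited per array are total gene signals, an intensity that Agilent Feature Extraction 9.5.3 (submitters' processing notes) summed over probes after background subtraction, with errors and detection calls. A series table of processed signal values that the authors deposited was used as an alternative only. The labels describe Cy3-CTP amplification and the study's methods pCp-Cy3 ligation. Signals were scaled to each array's 75th percentile (DRGs, all 348 miRNAs; soleus, those detected on all 10 arrays), floored and taken to log2. Each tissue had 1 fit of its 10 arrays by group (limma 3.58.1, R 4.3.3), two-sided, with Benjamini-Hochberg adjustment over all miRNAs tested. The fit was tested on simulated data. Python 3.11.15 with matplotlib 3.10.9 drew the figures.

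The miRNAs named are the 6, their hairpin relatives, the 3 closest profiles of each and the other miRNAs that lost detection. miR-125a-3p was named after its values were seen. Members and lists were chosen with earlier results of these data known. Replicate numbers did not pair the arrays. Control features and the 2 of 350 miRNAs with different names between files were left out. The number of arrays, above all the single sham array, limits the precision. Alternatives were other scalings, filters, floors, fits and omitted arrays, and subtraction of the baseline, which was chosen after seeing the data.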

Additional observations from a re-analysis of the deposited data

Results flagged for a closer look

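In 3 cases every array of a group lay on one side of sham in soleus and on the other side in the DRGs, and the difference between tissues was not tested. miR-339-3p after denervation had a mean log2 difference from sham of 0.46 in soleus and -0.76 in the DRGs. In soleus, however, denervation 1 was at 13.2 against 13.0 in sham. Leaving out 1 array took the soleus difference as low as 0.0093. miR-872 after entrapment was at 1.43 in soleus and -0.25 in the DRGs, and after decompression at 1.23 in soleus and -0.34 in the DRGs. miR-872 was not detected on the soleus sham array.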

How the results depend on the processing

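The count of the 6 miRNAs at least 2-fold below sham on all 6 entrapment and decompression DRG arrays was 6. It fell to 3 under quantile normalization (miR-190, miR-872* and miR-346) and to 2 with the baseline subtracted. All mean differences of the 6 after entrapment and decompression were below zero in the 10 settings that give them, and the weakest was -0.18 (miR-374, quantile). The 10 include the main setting and no filter, which leaves these values as they are. The 6 were chosen for their falls, so nothing is read from these signs. In soleus, the count of the 6 called between entrapment and denervation, 1, became 0 with no scaling, quantile, loess, no filter, the processed values and the baseline subtracted. Between decompression and denervation, 1 became 0 with no scaling, quantile, loess, no filter and the baseline subtracted, and 2 with a pseudocount. With the processed values it stayed 1, but with miR-374 in place of miR-339-3p (limma, adjusted p = 0.0536). The pseudocount left the count for entrapment at 1 but with miR-374 in place of miR-339-3p (adjusted p = 0.0913). The filter and floor fix the direction of miR-374, so nothing is read from its place in these counts. The count became 1 from 0 for decompression against sham with detection on all 10 arrays, and for denervation against sham with a pseudocount.

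Leaving out each injury array in turn gave 0 to 1 soleus calls for each injury against sham, 0 to 2 for entrapment against denervation and 1 to 2 for decompression against denervation. Without denervation 3, both of those last counts were 2 and each of the first was 1. A count of 2 includes miR-374, and the count of 1 for denervation against sham is miR-374 alone. No test is given for miR-374, so nothing is read from its place in these counts. The DRG counts of the 6 did not change, while the miRNAs that lost detection ran from 10 to 16 (16 without decompression 1), those at least 2-fold below sham from 22 to 27 and those without overlap from 59 to 67.

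These signs turned. With no scaling, miR-138 differed from denervation by -0.21 after entrapment and -0.24 after decompression in the DRGs, and miR-339-3p from sham by 0.26 after entrapment in soleus, where quantile gave 0.16 and the processed values 0.82. Under median scaling, which moved the median of all DRG miRNAs to 0.73 after either, miR-138 differed from sham by 0.68 and 0.65 (limma, adjusted p = 0.0247 and 0.0291), and miR-872 from sham by 0.59 and 0.52 (adjusted p = 0.0412 and 0.0628) and from denervation by 0.30 and 0.23. Against sham, miR-872 after entrapment was at 0.076 with quantile and 0.0064 with loess. Without scaling the median of all DRG miRNAs was -0.47. The cause was not tested.

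Same-numbered arrays correlated at -0.12 to 0.48 in the DRGs and -0.47 to 0.20 in soleus. With the replicate block, miR-872 after denervation differed from sham by -0.026, and none of the counts above changed (1 soleus call in each comparison with denervation). Detection on all 10 arrays left none of the 6 tested in the DRGs, and the single sham array could not be left out. Every fold given rests on dim signals near the detection limit, and the DRG bounds do not take off the baseline.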
